A study of Homo sapiens with 6 samples.

Results

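The genes described here encode the nuclear subunits and the NDUFAF assembly factors of respiratory complex I, measured in H295R, a steroid-producing cell line from a human adrenocortical carcinoma. CX-4945 (silmitasertib), an inhibitor of the protein kinase CK2 that also inhibits CLK kinases, was given at 5 µM for 24 h on 3 arrays, and the solvent DMSO for 24 h on 3 arrays. All 6 arrays come from this 1 cell line, with no other genotype or agent named. Members were all genes with an array row that carries exactly 1 symbol beginning with NDUFA, NDUFB, NDUFC, NDUFS, NDUFV or NDUFAF, pseudogenes left out. This gave 41 genes of 33616 with such a row, each represented by its brightest row over the 6 arrays. They comprise 9 genes of the N module, 4 of the Q module, 20 of the membrane arm and 8 assembly factors. Of the 47 genes listed for these roles and for the NDUFA4 family, 6 were not analysed here. Among them, NDUFS1, NDUFS8 and NDUFC2 share a row with other symbols, and NDUFA4 and NDUFA4L2 had no row under 1 symbol.

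Complex I is the entry point of electrons from NADH into the respiratory chain. Its N module oxidises NADH, its Q module hands the electrons over iron-sulfur clusters to ubiquinone, and its membrane arm pumps protons out of the mitochondrial matrix. The assembly factors help to build the complex and are not part of the finished enzyme. In the adrenal cortex, mitochondria also house the first step of steroid synthesis.

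Values are the deposited intensities, on a linear scale, and each log2 difference is CX-4945 minus DMSO, given with its standard error (SE) from a limma fit over all genes. A gene is called lower or higher, or said to have fallen or risen, where its Benjamini-Hochberg adjusted p was at most 0.05. Array medians over all rows were 45.8 to 46.5 with CX-4945 and 40.7 to 43.1 with DMSO. Over all genes the log2 difference had a median of 0.02, but of -0.09 once arrays were quantile normalized over all their rows and of -0.11 once their medians were made equal. Those scalings called 2624 genes higher and 5271 lower, and 2539 higher and 5291 lower, whereas the deposited scale gave 3469 higher and 4196 lower. The share of calls that were higher was thus 33.2% and 32.4%, compared with 45.3% on the deposited scale. Quantile normalization over the named genes alone moved it the other way, to 50.9% (4058 higher and 3908 lower). The correlation of CX-4945 replicate 2 with the other treated arrays, across genes, was 0.988 and 0.990, while those 2 arrays correlated at 0.994. In that array 35 of the 41 complex I genes had their highest treated value. This held for 38.2% of all genes and 40.5% of genes above the background level defined next. It also held for 32 of 35 subunits of complexes II to V and 10 of 14 complex I assembly proteins outside the NDUFAF family. The part of replicate 2 in the results was not tested beyond the fit without it and the fit with array weights. The labels do not say whether the replicates are separate cultures. The p-values therefore reflect spread among these arrays alone, and that spread may be technical. In these bulk RNA measurements, fewer cells of a type and less RNA per cell cannot be told apart.

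The cell line showed its label's markers. In CX-4945 or DMSO arrays, 6 of 7 measured adrenocortical markers lay above a background level, the 95th percentile of 400 olfactory receptor genes (intensity 83.3), and MC2R did not. Of these 7, 5 were lower and 1 higher with CX-4945. Above that level were 0 of 4 chromaffin markers, 1 of 3 leukocyte markers, 1 of 3 endothelial markers and 3 of 4 fibroblast markers. The summed intensity of the adrenocortical markers was 15448 to 21987 with CX-4945 and 80422 to 88287 with DMSO, and that of the fibroblast markers 1734 to 3473 with CX-4945 and 2233 to 3359 with DMSO. By limma DCN rose 1.75-fold (adjusted p = 0.00879), and CD68, a leukocyte marker below the background level, was higher by 0.77 on the log2 scale (adjusted p = 0.0336). PDGFRB, COL1A1 and COL1A2 did not pass. The part of these marker levels in the results was not tested.

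Among the complex I genes, 15 of 41 were lower with CX-4945, 3 were higher and 23 did not pass. In share, 36.6% of them were lower, against 12.5% of all genes and 20.3% of 17579 protein-coding genes, and 7.32% were higher, against 10.3% of all genes and 11.9% of protein-coding genes. All 41 lay above the background level in at least 1 group, and among the 17405 genes that did so 22% were lower and 17.2% higher. Calls in either direction made up 22.8% of all genes. The median log2 difference of the 41 genes was -0.38, but -0.23 after quantile normalization over genes and -0.22 with the mean of each gene's rows. It was -0.48 after quantile normalization over all rows and -0.51 with equal medians over all rows. In each of these 19 of the 41 genes were lower and 3 higher, and of all genes 5271 and 5291 were lower. The genes did not move as a block: 12 were at least 2-fold lower, a share of 29.3%, against 7.01% of all genes, 11.9% of protein-coding genes and 13.1% of genes above the background level. Only NDUFAF7 was at least 2-fold higher, against 4.34% of all genes. At the other end, 16 of the 41 differed by at most 0.25 on the log2 scale, against 47.6% of all genes and 30.9% of those above the background level. All 3 CX-4945 values lay below all 3 DMSO values in 21 of the 41 genes, against 18.4% of all genes and 28.7% of those above the background level. They lay above them in 4, against 17.6% and 24.9%. Without CX-4945 replicate 2, 21 of the 41 genes were lower and 3 higher, and of all 33616 genes 4695 were lower and 4226 higher.

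**Figure D1:**
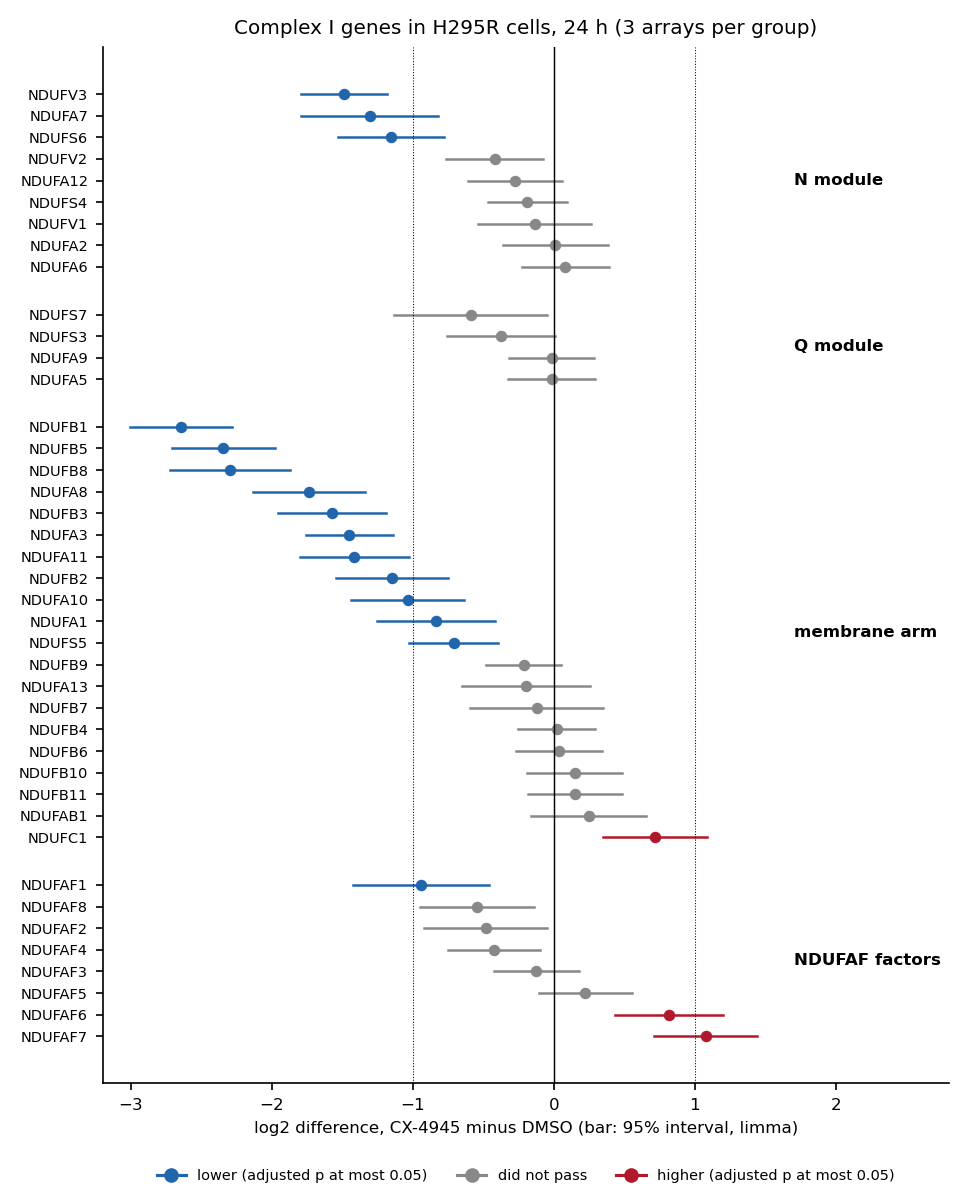
Log2 difference between CX-4945 and DMSO for each of the 41 complex I genes, grouped by role. Points are limma estimates from 3 arrays per group, bars are 95% intervals and dotted lines mark a 2-fold difference. The 12 genes that were at least 2-fold lower lie in the N module and the membrane arm, and the higher genes are NDUFC1, NDUFAF6 and NDUFAF7.

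The membrane arm held the deepest falls. Of its 20 measured subunits, 11 were lower, 1 was higher and 8 did not pass, with a median log2 difference of -0.77. In share, 55% were lower, against 12.5% of all genes and 22% of genes above the background level. The share higher was 5%, against 10.3% and 17.2%. NDUFB1, NDUFB5 and NDUFB8, small accessory subunits of this arm, fell 4.92- to 6.26-fold. These values are set beside those of the other roles as a description, and no test between groups of genes was made.

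NDUFB1 had intensities of 2732, 3536 and 2532 with CX-4945, against 19116, 16139 and 19427 with DMSO. Its treated arrays all lay far below the lowest DMSO array, a 6.26-fold fall (log2 difference -2.65 ± 0.17 SE, adjusted p = 2.82e-07). NDUFB5 had 1476, 1587 and 1747 with CX-4945, against 8429.8, 9229 and 6891 with DMSO. Here too the groups did not overlap, and the fall was 5.08-fold (log2 difference -2.34 ± 0.17, adjusted p = 8.03e-07). NDUFB8 had 1183, 1735 and 1085 with CX-4945, against 6057, 7095 and 6170.1 with DMSO. Replicate 2 was the highest of its treated arrays but still far below every DMSO array, and the fall was 4.92-fold (log2 difference -2.30 ± 0.20, adjusted p = 3.40e-06). NDUFA3, an accessory subunit near the junction of the arms, had 24759, 29107 and 20258.5 with CX-4945, against 69808, 65025 and 65615.5 with DMSO. Its brightest row was 2.73-fold lower (log2 difference -1.45 ± 0.14, adjusted p = 9.78e-06), without overlap. The counts of lower genes use this row, but the gene's other row rose by 2.29 on the log2 scale, and the mean of both gave a log2 difference of 0.42 (adjusted p = 0.172).

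Further falls in this arm were those of NDUFA8 (3.33-fold), which carries paired cysteine motifs on the side of the intermembrane space, NDUFB3 (2.98-fold), NDUFA11 (2.67-fold), NDUFB2 (2.22-fold) and NDUFA10 (2.05-fold), a subunit with a fold like that of nucleoside kinases. With the mean over its rows NDUFA10 no longer passed (log2 difference -0.36, adjusted p = 0.196). Smaller falls were those of NDUFA1, encoded on the X chromosome (log2 difference -0.84 ± 0.19, adjusted p = 0.00639), and NDUFS5, another protein with paired cysteine motifs (-0.71 ± 0.14, adjusted p = 0.00296). Neither passed without moderation of the variance (adjusted p = 0.0701 and 0.0661). In all 11 lower genes of this arm the 3 treated arrays lay below the 3 DMSO arrays. This held in 18.4% of all genes and 28.7% of genes above the background level. The calls rest on the same 6 values, so the lack of overlap adds no support to them.

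NDUFC1, a small subunit with a single membrane span, went the other way. It had 1698, 2136 and 2058 with CX-4945, against 1178, 1227 and 1168 with DMSO, a 1.64-fold rise without overlap (log2 difference 0.72 ± 0.17, adjusted p = 0.00786).

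The 8 membrane-arm genes that did not pass had estimates close to 0. Their log2 differences were -0.22 for NDUFB9, -0.20 for NDUFA13, -0.12 for NDUFB7, 0.02 for NDUFB4, 0.04 for NDUFB6, 0.15 for NDUFB10, 0.15 for NDUFB11 and 0.25 for NDUFAB1. NDUFAB1 is the mitochondrial acyl carrier protein, which also serves mitochondrial fatty acid synthesis. The 95% interval of NDUFB4 ran from -0.25 to 0.29 and that of NDUFB6 from -0.27 to 0.34, so a 2-fold change of either gene lay outside it. NDUFB4 had 26673, 31763 and 26327 with CX-4945, against 28198, 28292 and 26806 with DMSO, and its groups overlapped.

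**Figure D2:**
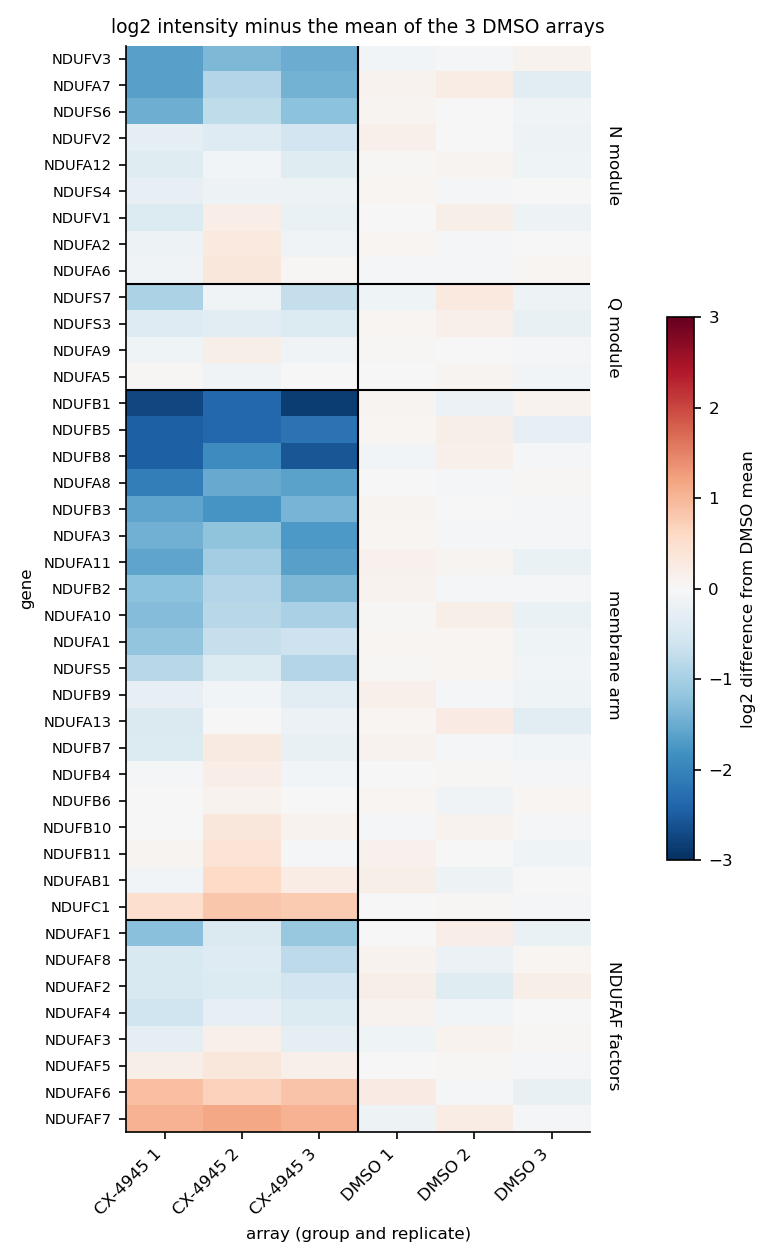
Log2 intensity of each complex I gene on each array, minus the mean of that gene's 3 DMSO arrays. Columns are arrays with CX-4945 left of DMSO, rows are genes by role, blue is lower and red is higher. The falls of NDUFB1, NDUFB5 and NDUFB8 appear on all 3 treated arrays, and CX-4945 replicate 2 is the highest treated array in 35 of 41 genes.

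In the N module 3 of 9 measured subunits were lower, none was higher by limma (also none at an unadjusted p under 0.05) and 6 did not pass. The share lower was 33.3%, against 12.5% of all genes and 22% of genes above the background level. The median log2 difference was -0.27. The 3 that fell are accessory subunits, but the accessory subunits NDUFA12, NDUFS4, NDUFA2 and NDUFA6 did not pass. Nor did the only measured core subunits, NDUFV1, which binds NADH and the flavin, and NDUFV2, an iron-sulfur protein. NDUFV3 had 5818, 7031 and 6439.7 with CX-4945, against 17139, 17579 and 19444 with DMSO. Its groups did not overlap and it fell 2.81-fold (log2 difference -1.49 ± 0.14, adjusted p = 7.47e-06). NDUFS6, a zinc-binding subunit, had 8396, 13504 and 9800.3 with CX-4945, against 24548, 23187 and 21560.2 with DMSO. It fell 2.23-fold (log2 difference -1.16 ± 0.17, adjusted p = 3.15e-04), with replicate 2 again the highest treated array. NDUFA7 had 967, 1625 and 1111 with CX-4945, against 3179, 3488 and 2376 with DMSO. It fell 2.47-fold without overlap (log2 difference -1.31 ± 0.22, adjusted p = 8.73e-04), but did not pass without moderation of the variance (adjusted p = 0.0636).

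NDUFV2 had 4919.9, 4672 and 4053 with CX-4945, against 6779, 6080.2 and 5424 with DMSO. The groups did not overlap, but the log2 difference of -0.42 ± 0.16 did not pass (adjusted p = 0.0763). It passed in 4 of 17 alternative settings, among them the fit without CX-4945 replicate 2 (adjusted p = 0.0358). The other log2 differences in this module were -0.27 for NDUFA12, -0.19 for NDUFS4, -0.14 for NDUFV1, 0.01 for NDUFA2 and 0.08 for NDUFA6. NDUFA6 belongs to the LYR protein family and holds the acyl carrier protein on the complex. For NDUFV1 the 95% interval of the log2 difference was -0.54 to 0.26.

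Of the 4 measured Q module subunits, none passed the limma test. Among all genes above the background level 22% were lower and 17.2% higher, so none of 4 genes says little. By limma 1 of the 4 was lower at an unadjusted p under 0.05. That one was NDUFS7, whose iron-sulfur cluster passes electrons to ubiquinone. It had 54.4, 96.6 and 63.4 with CX-4945, against 95.6, 127 and 93.8 with DMSO. The groups overlapped through replicate 2, and the log2 difference was -0.59 ± 0.25 (adjusted p = 0.116). Without CX-4945 replicate 2 it was -0.83 (adjusted p = 0.0170), and with array weights -0.69 (adjusted p = 0.029). Its treated mean lay below the background level and its DMSO mean just above it. NDUFS3, a core subunit, had 995, 1059 and 978 with CX-4945, against 1371, 1466 and 1119.7 with DMSO. All treated values were below the DMSO values, but the log2 difference of -0.38 ± 0.18 did not pass (adjusted p = 0.164).

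The accessory subunits NDUFA9 and NDUFA5 had estimates near 0. NDUFA9, which resembles short-chain dehydrogenases, had 12766, 15951 and 13103 with CX-4945, against 14396.5, 14051 and 13642 with DMSO. Its log2 difference was -0.02, with a 95% interval of -0.32 to 0.28. NDUFA5 had 5862, 5326 and 5717 with CX-4945, against 5698, 5993 and 5396 with DMSO. Its log2 difference was -0.02 as well (95% interval -0.33 to 0.29), so in both genes a 2-fold change lay outside the interval.

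Promoter sequences are shown for NDUFB1, the gene with the largest fall, for NDUFAF7, the gene with the largest rise, and for NDUFA7 and NDUFA9, which share a motif at the start of the transcript although only NDUFA7 was lower. They come from RefSeq on GRCh38.p14 and run from 250 bases before to 30 bases after the annotated start, 5′ to 3′ on the strand of the gene. Capitals mark exact matches to AAGATGGCG, a core of the motif of YY1, and to GGGCGG, the GC box bound by SP1, on either strand.
NDUFB1 (chr14:92121677-92121956, minus strand): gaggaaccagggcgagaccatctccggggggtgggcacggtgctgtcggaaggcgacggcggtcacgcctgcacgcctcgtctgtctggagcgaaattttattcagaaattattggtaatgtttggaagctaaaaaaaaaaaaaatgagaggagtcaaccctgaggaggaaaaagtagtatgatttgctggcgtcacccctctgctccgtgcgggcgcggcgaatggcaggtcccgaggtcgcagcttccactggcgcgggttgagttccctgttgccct
NDUFAF7 (chr2:37231408-37231687, plus strand): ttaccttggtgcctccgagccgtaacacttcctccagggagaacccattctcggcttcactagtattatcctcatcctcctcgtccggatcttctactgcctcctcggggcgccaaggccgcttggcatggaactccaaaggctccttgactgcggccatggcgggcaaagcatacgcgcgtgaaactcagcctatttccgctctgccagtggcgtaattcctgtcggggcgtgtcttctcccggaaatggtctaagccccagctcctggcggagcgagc
NDUFA7 (chr19:8321346-8321625, minus strand): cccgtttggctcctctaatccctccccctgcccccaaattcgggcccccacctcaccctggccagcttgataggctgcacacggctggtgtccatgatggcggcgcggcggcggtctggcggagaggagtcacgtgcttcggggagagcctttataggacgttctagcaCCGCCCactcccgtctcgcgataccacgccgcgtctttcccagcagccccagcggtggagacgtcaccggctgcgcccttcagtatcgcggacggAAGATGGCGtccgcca
NDUFA9 (chr12:4648864-4649143, plus strand): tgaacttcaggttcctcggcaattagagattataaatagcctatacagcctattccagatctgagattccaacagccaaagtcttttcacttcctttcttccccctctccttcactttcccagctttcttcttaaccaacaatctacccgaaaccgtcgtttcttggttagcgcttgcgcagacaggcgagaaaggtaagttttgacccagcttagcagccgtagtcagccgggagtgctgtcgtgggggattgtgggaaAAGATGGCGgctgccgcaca

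The YY1 letters begin at base 15 of the NDUFA7 transcript and at base 11 of the NDUFA9 transcript, and the GC box of NDUFA7 begins 81 bases before its start. NDUFB1 and NDUFAF7 held none of the 5 motifs searched in this window. A promoter was matched for 37 of the 41 genes (not for NDUFB5, NDUFB9, NDUFS5 and NDUFAF6), and the first window listed for a gene was used. The YY1 letters were found in 4 of these 37 (10.8%), against 1.48% of 27305 genes with a promoter, namely in NDUFS4, NDUFS7, NDUFA7 and NDUFA9. The letters GCGCATGCG, a core of the motif of NRF1, were found in 5 of 37 (13.5%), against 2.06% of those genes, namely in NDUFB4, NDUFS6, NDUFA8, NDUFS7 and NDUFAF5. GGGCGG was found in 21 of 37 (56.8%), against 43.7%, TGACGTCA, the cAMP response element, in 2 of 37 (5.41%), against 1.97%, and CCGGAAGT, an ETS motif, in 1 of 37 (2.7%), against 4.34%. Both strands were searched, and none of the marked matches in the printed windows overlap. Among 13 lower genes with a promoter, 1 held the YY1 letters, 2 the NRF1 letters, 10 the GC box, 2 the cAMP response element and 0 the ETS motif. Among 22 genes that did not pass, 3 held the YY1 letters, 3 the NRF1 letters, 10 the GC box, 0 the cAMP response element and 1 the ETS motif. These matches are a description of letters in a window. The shares over genes with a promoter were not limited to protein-coding genes or to genes above the background level.

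Of the 8 NDUFAF assembly factors 2 were higher, 1 was lower and 5 did not pass. The 1 of 8 lower is a share of 12.5%, against 12.5% of all genes and 22% of genes above the background level. The 2 of 8 higher are 25%, against 10.3% and 17.2%. The lower count depended on the setting, with 0 of 8 without moderation of the variance and 4 of 8 with array weights. Over all 33616 genes the lower calls moved too, from 4196 in the main fit to 2567 and 4874 in these settings. NDUFAF7 is a methyltransferase that acts early in assembly. It had 2948, 3193 and 2939 with CX-4945, against 1283, 1664 and 1379 with DMSO. All treated arrays lay above all DMSO arrays, a 2.11-fold rise (log2 difference 1.08 ± 0.17, adjusted p = 4.43e-04). NDUFAF6, a factor needed early in assembly, had 2647, 2317 and 2589 with CX-4945, against 1686, 1395 and 1228 with DMSO. It rose 1.76-fold without overlap (log2 difference 0.82 ± 0.18, adjusted p = 0.00427). NDUFAF1, a member of the assembly complex of the membrane arm, had 1096, 1911 and 1183 with CX-4945, against 2578, 2994 and 2276 with DMSO. It fell 1.92-fold (log2 difference -0.94 ± 0.22, adjusted p = 0.00773), with replicate 2 well above the other treated arrays. The call of NDUFAF1 was lost without DMSO replicate 2 (adjusted p = 0.0503) and without moderation of the variance (adjusted p = 0.122).

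NDUFAF8, a partner of NDUFAF5, had 907, 958 and 719.6 with CX-4945, against 1339, 1107 and 1304 with DMSO. The groups did not overlap, but the log2 difference of -0.54 ± 0.19 just missed the threshold (adjusted p = 0.0542). The other log2 differences were -0.48 for NDUFAF2, -0.42 for NDUFAF4, -0.12 for NDUFAF3 and 0.22 for NDUFAF5, a hydroxylase that modifies NDUFS7. NDUFAF2 resembles the N module subunit NDUFA12, and NDUFAF3 and NDUFAF4 act together on the Q module. NDUFAF4 (adjusted p = 0.0621) and NDUFAF8 each passed in 6 of 17 alternative settings. Among these was the fit without CX-4945 replicate 2, at adjusted p = 0.00734 and 0.0167. NDUFAF2 passed in 3 of the 17.

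Several genes had more than 1 row on the array, and these did not always give the same value. Of the 7 such genes, NDUFA3 had rows in opposite directions. Its brightest row fell as given above, whereas its other row had 864, 1086 and 852 with CX-4945, against 262, 239 and 108 with DMSO. That dimmer row was higher, with a log2 difference of 2.29 ± 0.30 and an adjusted p of 1.22e-04 in the fit over all rows with 1 symbol. The direction of NDUFA3 therefore rests on which row is read. NDUFA10 had 16 rows, of which 6 were lower and none was higher. The 4 rows with a mean log2 intensity over 9.5 were all lower, with log2 differences of -1.04 to -0.71. That level was not set in advance. The other rows ranged from -1.55 to 0.32, and they did not divide by intensity. Rows at 8.86 (log2 difference -0.05) and 8.63 (0.22), well above the background level of 6.38, did not pass, whereas a row at 5.94 was lower (-1.55). NDUFAF6 had a second row that also rose (log2 difference 1.29 ± 0.23) and another at -0.05 that did not pass. Which part of each transcript a row reads was not analysed here, so differing rows are not assigned to exons or transcript forms.

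**Figure D3:**
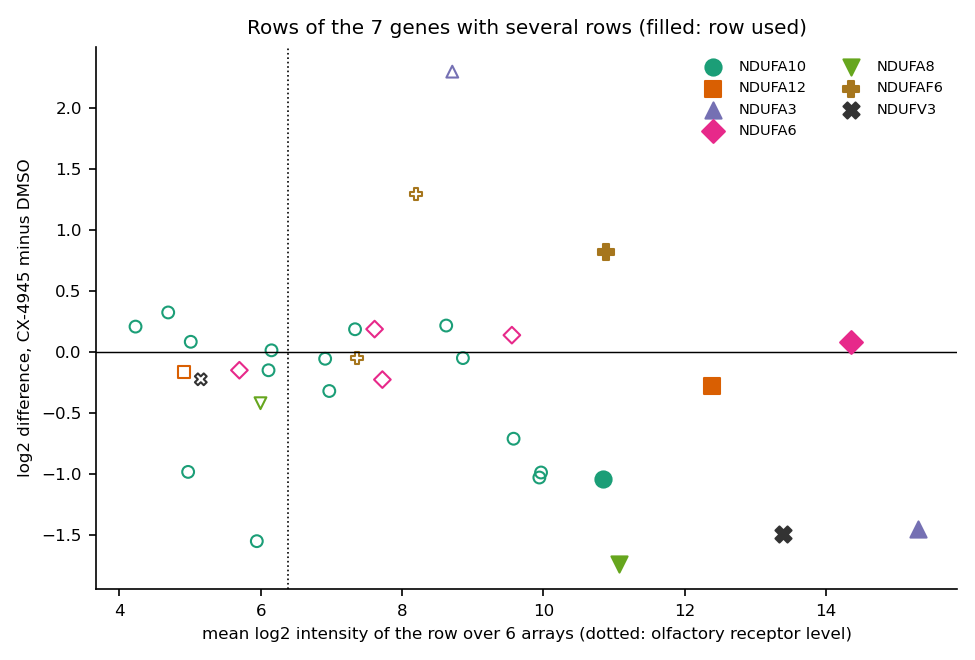
Log2 difference between CX-4945 and DMSO against mean log2 intensity, for every row of the 7 complex I genes with several rows. Filled symbols are the brightest rows, which represent the genes, open symbols the other rows, and the dotted line is the olfactory receptor level. The rows of NDUFA3 lie on opposite sides of 0, at -1.45 and 2.29.

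Pseudogenes resemble their parent genes in sequence, so their rows may share signal with them. Rows of 57 pseudogenes were taken by symbols ending in P and a number, among them NDUFA4P2, whose parent is not among the 41 genes. Of the 57, 13 lay above the background level in at least 1 group. By limma 5 were lower (8.77%, against 12.5% of all genes) and 2 higher (3.51%, against 10.3%). Of the lower ones, NDUFA3P3, NDUFB4P5 and NDUFS5P5 lay below the background level. NDUFB1P1 moved close to its parent (log2 difference -2.40 ± 0.22, against -2.65 for NDUFB1), whereas NDUFS6P1 went the other way (2.77 ± 0.25, against -1.16 for NDUFS6). Pseudogene rows existed for 18 of the 41 genes, among them 8 of the 15 lower genes and 10 of the 23 that did not pass. The 12 pseudogenes of NDUFB4 and the 12 of NDUFA5 included 3 each above the background level. Shared signal between these rows was not tested.

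The lengths of the genes overlapped between the groups, as a description without a test. In RefSeq the 15 lower genes spanned 4.71 to 132.9 kb with a median of 12.8 kb, and the 23 that did not pass spanned 2 to 207.8 kb with a median of 10.9 kb. The 3 higher genes spanned 12.6 to 222.7 kb.

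Of 14 measured complex I assembly proteins outside the NDUFAF family, 6 were lower (42.9%, against 12.5% of all genes and 22% of those above the background level) and none was higher by limma (none at an unadjusted p under 0.05 either), with a median log2 difference of -0.37. DMAC1, named for distal membrane arm assembly, fell 5.32-fold (log2 difference -2.41 ± 0.19, adjusted p = 1.77e-06). NUBPL, which supplies iron-sulfur clusters to complex I, fell 4.09-fold, and TIMMDC1, a membrane-arm factor, 3.74-fold. DMAC2 was lower by a log2 difference of -0.89 (adjusted p = 0.00120). ACAD9, which works in a complex with NDUFAF1, had a log2 difference of 0.07 and did not pass.

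Iron-sulfur cluster supply, on which the N and Q modules depend, had 4 of 13 measured genes lower (30.8%, against 22% of genes above the background level) and 1 higher (7.69%, against 17.2%). The cysteine desulfurase NFS1 fell 5.16-fold (log2 difference -2.37 ± 0.21, adjusted p = 4.63e-06). The late-acting carrier NFU1 fell 2.86-fold and the ferredoxin FDX2 2.38-fold. HSPA9, the mitochondrial chaperone that also serves protein import, rose 1.75-fold (log2 difference 0.81 ± 0.12, adjusted p = 3.40e-04).

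Among 12 measured regulators of nuclear genes for the respiratory chain, 3 were lower (25%) and 2 higher (16.7%), with a median log2 difference of -0.04. These shares are close to the 22% lower and 17.2% higher among all genes above the background level. The orphan receptor ESRRG fell 9.12-fold (log2 difference -3.19 ± 0.35, adjusted p = 2.79e-05) and the coactivator PPARGC1A 2.61-fold. The mitochondrial transcription factor TFB2M rose 1.95-fold (log2 difference 0.96 ± 0.14, adjusted p = 2.37e-04), while SP1 was lower by -0.47 on the log2 scale. NRF1 (log2 difference -0.50) and GABPA (-0.03) did not pass.

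The other nuclear-encoded complexes of oxidative phosphorylation were the closest comparison. Of 35 measured subunits of complexes II to V, 19 were lower (54.3%) and none was higher by limma (none at an unadjusted p under 0.05 either), with a median log2 difference of -0.54. The 33 complex I subunits, without assembly factors, had 14 lower (42.4%) and 1 higher (3.03%), with a median of -0.38. Among all genes 12.5% were lower and 10.3% higher, and among those above the background level 22% and 17.2%. ATP5MC1, a gene of the ATP synthase rotor ring, fell 9.87-fold (log2 difference -3.30 ± 0.17, adjusted p = 6.35e-08), and ATP5MF, another ATP synthase subunit, 4.19-fold. UQCRC2, a core protein of complex III, fell 3.36-fold, and SDHC, a membrane anchor of complex II, 4.88-fold. No test between the lists was made, and falls next to genes with estimates near 0 were found in both. The genes for subunits encoded in mitochondrial DNA were not analysed here.

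**Figure D4:**
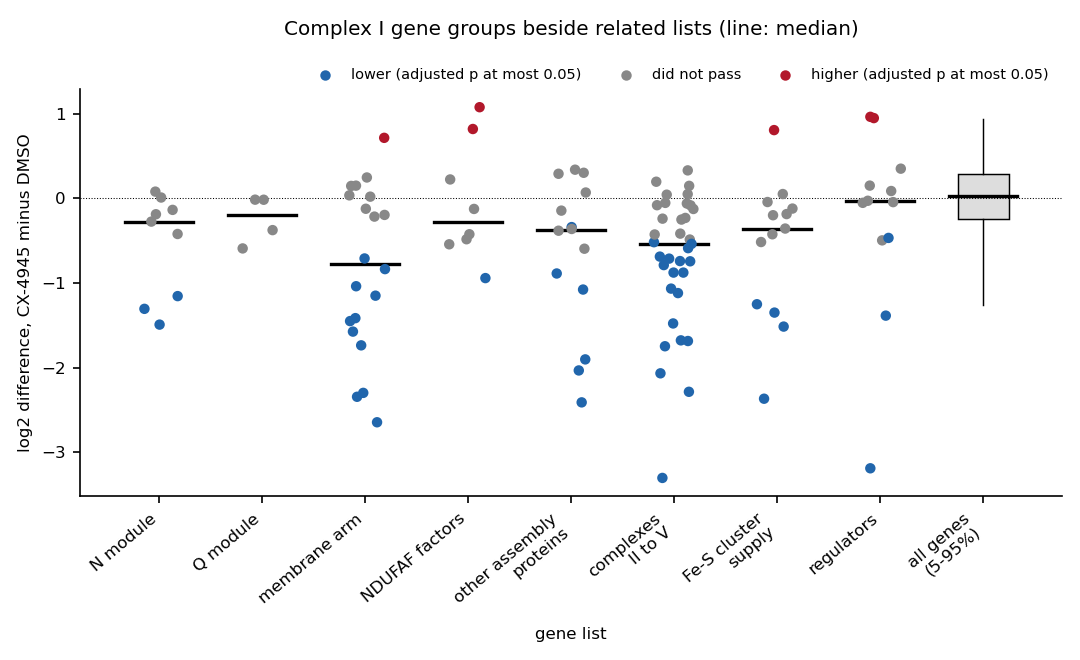
Log2 difference between CX-4945 and DMSO for the genes of each complex I role and of related lists. Each point is a gene, coloured by its limma call, the horizontal line is the list's median, and the box for all genes spans the 25th to 75th percentile with lines to the 5th and 95th. Medians were -0.77 for the membrane arm, -0.54 for complexes II to V and 0.02 for all genes.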

How the data were processed

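RNA of H295R cells was measured on 6 whole-transcript arrays. Groups and replicate numbers come from the sample titles. The deposited values are intensities on a linear scale (6.41 to 919659.3), made by the authors with Affymetrix Expression Console, per the submitters' processing notes; for its version, summarization and build, they are not given in any source used here. They were taken as normalized by the authors, so folds are on the authors' scale and may be compressed near background.

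The log2 of each value was taken with no pseudocount, scaling or filter on dim rows. The platform table named 36176 of 135750 rows with 1 symbol and 1119 with several. CX-4945 was compared with DMSO over 33616 genes by limma 3.58.1 (lmFit, then eBayes with trend on) under R 4.3.3, with two-sided p-values adjusted over all genes by the method of Benjamini and Hochberg. The fit was also run on simulated data with independent noise in every value. No deviation shared by the genes of an array was simulated, so that run cannot speak to one. The number of arrays limits the precision: over the complex I genes the median SD was 0.22 with CX-4945 and 0.11 with DMSO, on the log2 scale (n = 3 each).

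Members, lists and tests were chosen with earlier results of these data known. All members were named, with values on every array for the 4 smallest adjusted p of each role; NDUFC1 and NDUFB4 were added after their values were seen. From other lists the 4 called genes with the smallest adjusted p were named, and ACAD9, NRF1 and GABPA were added after their values were seen. The promoters and the motifs were also chosen after the values were seen, and the NRF1 motif was shortened by 1 letter after a first search. Same-numbered arrays deviated together at r = 0.092, 0.090 and -0.035, so the numbers were not taken to pair samples. Alternatives were other scalings, variance models, array weights, filters, rows, the replicate block and leaving out each array; scaling over all rows was chosen after seeing the data. Figures were made in matplotlib 3.10.9.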

Additional observations from a re-analysis of the deposited data

How the results depend on the processing

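In all 17 alternatives 3 complex I genes were higher, and 11 to 21 were lower. Of the 18 called genes, 12 kept their call and direction in every alternative. Without moderation of the variance 4259 genes were called over all genes and 11 complex I genes were lower, with NDUFA1, NDUFA7, NDUFAF1 and NDUFS5 losing their calls. The mean of a gene's rows turned NDUFA3 to a log2 difference of 0.42, ended the call of NDUFA10 and moved the median of the 41 genes to -0.22, by the alternative's own construction. That median was -0.23 after quantile normalization over genes, and the cause was not tested. With equal medians over all rows it was -0.51. That scaling moves every gene's difference by the same amount, and the median of all genes went from 0.02 to -0.11. Leaving out each array in turn gave 14 to 21 lower genes, medians of -0.41 to -0.29 and 5865 to 8921 calls over all genes. The highest counts came without CX-4945 replicate 2, and 7 genes that did not pass did so in at least 1 alternative. With the replicate block 15 complex I genes were lower, 3 higher and 8058 of all genes were called, so it changed no complex I call. Rows near the background level, such as that of NDUFS7, limit what can be said of their size.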
